A study of Mus musculus with 5 samples.

Results

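The genes described here are 52 genes of G2 and mitosis: cyclins and the kinase they activate, mitotic kinases, spindle checkpoint and kinetochore genes, kinesins, condensin subunits and regulators of anaphase and cytokinesis. They were taken by symbol from a deposited table of 34240 features, in which all 52 were found, and all 52 passed the filter on low values. RNA sequencing had been done on 5 libraries from BALB/c mice aged 10-12 months per the labels. The normal group held 3 libraries of Gr1+Mac1+ myeloid cells sorted from bone marrow. The acute myeloid leukaemia (AML) group held 2 libraries of Mac+Gr1+B220+ cells, whose tissue the labels give as bone marrow and spleen, from mice with a myeloid leukaemia induced by CNTRL-FGFR1. That fusion joins the centrosomal protein centriolin to the receptor tyrosine kinase FGFR1. B220 in the sort and spleen as a source occurred in the AML group alone, so group, sort and tissue cannot be told apart. Whether each library stands for its own animal is not in the labels. The p-values therefore describe the spread among these 5 libraries, which may be technical. In bulk RNA, fewer dividing cells and less RNA of a gene per dividing cell cannot be told apart.

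A cell that has copied its DNA enters mitosis when CDK1, bound to cyclin A or cyclin B, becomes active. The kinases WEE1 and MYT1 hold CDK1 inactive, and CDC25 phosphatases release it. After the chromosomes have attached to the spindle, the anaphase-promoting complex marks cyclin B and securin for destruction, separase cuts cohesin, and the cell divides. In bone marrow the early granulocyte precursors divide, whereas late neutrophils have left the cell cycle. Many genes of this phase share promoter elements named the cell cycle genes homology region (CHR), bound by the DREAM and MYB-MuvB complexes, and the CCAAT box, bound by NF-Y, whereas many replication genes carry E2F sites.

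Values are RPKM, reads scaled to transcript length and to the size of each library, and fold changes (AML minus normal) are on the log2(RPKM + 1) scale unless a ratio of mean RPKM is named. A gene is said to have risen or fallen where limma gave a Benjamini-Hochberg adjusted p under 0.05 over all 10166 genes tested. Across the 5 libraries the 52 genes ranged from 3.4 to 158.84 RPKM. At the depth that steps between low values gave for normal library 1 and AML library 1, the gene with the fewest reads, Cdc25c, had about 432 and 447. The median over the 52 genes was 3293.5 and 3506.5 reads. Depth was not recovered firmly for the other libraries. Genes of the sorting antigens were lower in both AML libraries than in every normal library. Itgam (Mac1) lay between 428.8 and 580.4 RPKM in normal libraries and at 250.9 and 169.0 RPKM in AML libraries, and Ly6g (Gr1) between 1126.0 and 1464.3 against 650.4 and 481.7 RPKM. Ptprc, whose isoforms include B220, lay between 163.6 and 262.5 against 71.7 and 77.7 RPKM, and a value per gene does not tell its isoforms apart.

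Normal library 3 stood apart from the other normal libraries. It correlated with them at r = 0.924 and 0.944 over the tested genes, and they correlated with each other at 0.988. Its difference from them followed transcript length (r = -0.406 over 9892 genes) and GC content (r = 0.327), and the difference of AML library 2 from AML library 1 followed length too (r = -0.371). Summed erythroid markers (10 genes) stood at 1518.8 and 970.5 RPKM in normal libraries 1 and 2, 102.7 in normal library 3 and 116.0 and 127.0 in the AML libraries. Summed eosinophil and basophil markers (8 genes) stood at 909.4, 959.3, 58.9, 115.5 and 240.2 RPKM in the same order. Between the groups, all 5 promyelocyte granule genes rose (summed level 299.4 to 445.9 RPKM in normal and 10331.2 to 11329.7 in AML libraries). Of 8 later neutrophil genes 5 fell and 2 had positive fold changes. Their summed level overlapped, at 54496.9, 58094.1 and 65257.0 RPKM in normal and 61191.7 and 45034.5 RPKM in AML libraries. All 8 monocyte and macrophage genes fell (416.4 to 672.8 against 25.1 to 30.6 RPKM). Over all tested genes 19.3% rose and 11.8% fell. Of 8 T cell markers 4 were tested, of which Cd3e, Cd3g and Thy1 rose and Cd3d fell. Of 8 B lineage markers 4 were tested, and Vpreb3 fell. No marker of these lists was at 0 in every library. The part of these cell mixtures in the values below was not tested.

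Most G2 and mitosis genes did not pass the test: 3 of 52 rose in AML cells (Cdk1, Espl1 and Tacc3) and 6 fell (Ccna2, Ccnb1, Cdc25b, Nusap1, Ube2c and Spc25). That is 17.3% called, against 31.0% of all 10166 tested genes, with 5.77% higher (19.3% of all genes) and 11.5% lower (11.8% of all genes). At an unadjusted p under 0.05 there were 17 of 52, against 4463 of all 10166 tested genes. Upper quartile scaling gave 1 higher and 8 lower (1614 and 1404 of all 10121), and quantile normalization 2 and 7 (1699 and 1432 of all 10166). The log2 fold changes ran from -1.48 to 1.01 with a median of -0.13, beside a median of 0.12 over all tested genes. The summed level of the 52 genes in the normal libraries was 1729.4, 1806.8 and 1625.2 RPKM, and in the AML libraries 1669.0 and 1501.0 RPKM. In 8 genes every AML library lay above every normal library (34.8% of all tested genes did so), and in 15 every AML library lay below (22.1%). The other 29 overlapped. AML library 2 was the lowest of the 5 libraries for 27 of the 52 genes and for 2980 of all 10166 tested genes.

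**Figure D1:**
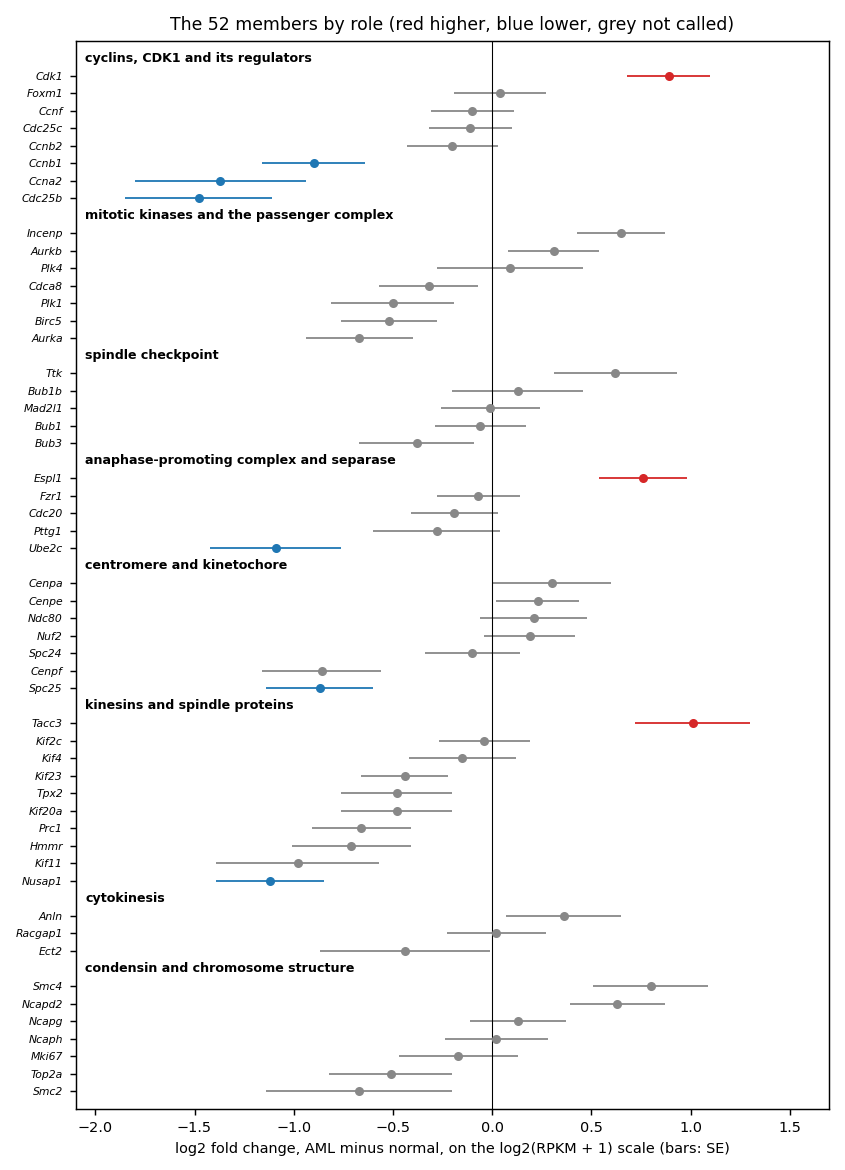
Log2 fold change (AML minus normal, log2(RPKM + 1) scale) of the 52 genes on the horizontal axis, grouped by role on the vertical axis, with bars of 1 SE from the limma fit of 3 normal and 2 AML libraries. Cdk1, Espl1 and Tacc3 lie to the right in red and 6 genes to the left in blue, and the 43 grey genes, which did not pass, spread on both sides of 0.

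The calls rest on few libraries. Without normal library 3 there were 4 higher and 12 lower genes, beside 2757 and 2142 of all 10110 genes tested then. Without normal library 1 there were 0 and 1 (1139 and 797 of all 9948). Without normal library 2 there were again 0 and 1 (955 and 640 of all 9933). The counts thus moved over the whole table too. With AML library 1 left out, the median log2 fold change of the 52 genes was -0.26 (-0.02 over all tested genes). With AML library 2 left out, it was -0.05 (0.18 over all tested genes). The deposited table holds 2 decimals for 9 of the 52 genes, all with a positive fold change, and 1 decimal for 43, of which 10 were positive. With all values rounded to 1 decimal, 3 genes were higher and 4 lower (1942 and 1174 of all 10192 tested). None of the 9 called genes changed sign in any of the 15 alternatives. With the trends on transcript length and GC content removed, 8 genes were called higher: the 3 named above with Anln, Cenpe, Incenp, Ncapd2 and Smc4. The 6 called lower were the same 6 genes. Over all 9892 genes tested in that setting, 2152 were higher and 1337 lower.

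Promoters were compared because the genes of this phase are known for shared promoter elements. RefSeq promoter windows (GRCm38.p6, 250 bases before to 50 after the start) were matched for 43 of the 52 genes, in 46 windows. The CHR word TTTGAA or TTCGAA, searched on both strands, was in 76.1% of these windows and in 19.2% of all 32851 windows. TTTGAA alone was in 71.7% and 17.9%. The CCAAT box, on both strands, was in 76.1% against 37.4%, at least 2 of them in 47.8% against 11.7%, and CHR and CCAAT together in 69.6% against 7.52%. The E2F words TTTGGCG and TTCCCGC were in 6.52% against 5.99%. In 45 windows of 38 DNA replication genes the shares were 22.2% for CHR, 53.3% for CCAAT and 55.6% for the E2F words. A CHR word and a CCAAT box can share a base at their ends and were counted separately. Matches are letters in a window, not sites of binding.

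The 150 bases before the start of 7 genes are written out 5′ to 3′ because these genes rose, fell or did not pass the test while carrying the elements in different numbers. Capitals mark CHR words and CCAAT boxes on either strand. Cdk1 rose and has 2 of each, Espl1 rose and has 1 of each, and Tacc3 rose and has neither in this stretch. Ube2c fell and has 1 CHR word and 2 CCAAT boxes, Ccnb1 fell and has 2 CCAAT boxes and no CHR word, and Nusap1 fell and has neither in this stretch. Ccnb2, which did not pass, has 3 CCAAT boxes here and 2 CHR words in the rest of its window.
Cdk1 (chr10:69352913-69353062, minus strand): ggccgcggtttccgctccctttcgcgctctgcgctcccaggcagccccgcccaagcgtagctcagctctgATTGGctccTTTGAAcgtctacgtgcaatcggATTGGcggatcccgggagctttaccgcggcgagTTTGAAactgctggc
Espl1 (chr15:102296143-102296292, plus strand): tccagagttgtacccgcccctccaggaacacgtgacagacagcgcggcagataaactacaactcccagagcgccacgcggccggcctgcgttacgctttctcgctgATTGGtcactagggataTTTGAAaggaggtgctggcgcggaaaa
Tacc3 (chr5:33657978-33658127, plus strand): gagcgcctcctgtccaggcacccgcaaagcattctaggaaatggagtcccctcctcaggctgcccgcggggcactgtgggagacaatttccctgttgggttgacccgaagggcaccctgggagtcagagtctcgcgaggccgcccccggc
Ube2c (chr2:164769779-164769928, plus strand): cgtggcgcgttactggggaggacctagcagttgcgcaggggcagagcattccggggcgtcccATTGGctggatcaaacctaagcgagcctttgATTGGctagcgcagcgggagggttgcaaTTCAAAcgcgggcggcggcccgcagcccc
Ccnb1 (chr13:100786487-100786636, minus strand): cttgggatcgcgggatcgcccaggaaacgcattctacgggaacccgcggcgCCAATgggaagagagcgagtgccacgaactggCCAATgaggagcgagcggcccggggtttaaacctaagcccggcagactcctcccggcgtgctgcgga
Nusap1 (chr2:119618148-119618297, plus strand): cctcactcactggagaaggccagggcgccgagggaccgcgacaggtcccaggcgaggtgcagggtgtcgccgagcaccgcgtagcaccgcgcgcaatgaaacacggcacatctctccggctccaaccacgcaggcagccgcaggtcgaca
Ccnb2 (chr9:70421555-70421704, minus strand): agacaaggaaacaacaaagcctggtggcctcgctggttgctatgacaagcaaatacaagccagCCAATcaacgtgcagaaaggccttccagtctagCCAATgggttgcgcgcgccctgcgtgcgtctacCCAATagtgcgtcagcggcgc
Espl1, which rose, and Ube2c, which fell, both carry a CHR word close to the start, at 27 and 29 bases before it. A CCAAT box lies further upstream in each, but the whole windows hold 1 such box for Espl1 and 6 for Ube2c. Cdc25b and Spc25, which also fell and are not written out, each have 1 CHR word in their windows, with 1 and 2 CCAAT boxes. For Ccna2, which fell too, no promoter elements are given here. Whether these elements bear on the changes was not tested.

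Cyclins and the CDK1 regulators held 4 of the 9 calls, in both directions. Cdk1, the kinase that starts mitosis (chromosome 10, 68799383 to 68815686, mm9), was at 22.67, 25.95 and 25.08 RPKM in the normal libraries, here and below in the order 1 to 3, and at 46.63 and 46.04 RPKM in AML libraries 1 and 2. The AML values are close together and lie well above all normal values. Cdk1 rose 1.89-fold in mean RPKM (log2 fold change 0.89, SE 0.21, limma, Benjamini-Hochberg adjusted p = 0.0206). Ccna2, cyclin A2, a partner of CDK1 and CDK2 (chromosome 3, 36463788 to 36471072), was at 55.4, 60.5 and 33.9 RPKM in normal and 28.5 and 11.5 RPKM in AML libraries. The lowest normal value came from library 3 and lay just above AML library 1. Ccna2 was 2.5-fold lower (log2 fold change -1.37, SE 0.43, limma, Benjamini-Hochberg adjusted p = 0.0496), close to the threshold. Of its 3510 exon bases 512 overlap Exosc9 on the opposite strand, which stood at 7.9 to 12.3 RPKM in all libraries.

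Ccnb1, cyclin B1 (chromosome 13, 101548605 to 101556525), the main mitotic partner of CDK1, was at 9.0, 10.0 and 7.2 RPKM in normal and 5.1 and 3.4 RPKM in AML libraries. Both AML values lay below all normal values, with a log2 fold change of -0.90 (SE 0.26, limma, Benjamini-Hochberg adjusted p = 0.0372). Its transcript has 4 near copies elsewhere in the genome, the longest match covering 72.8% of it and the closest being 99.1% identical. Its level can therefore be understated where reads were split. Ccnb2, cyclin B2, had the highest normal mean of this group, with 48.6, 54.7 and 60.1 RPKM in normal and 51.9 and 42.7 RPKM in AML libraries (log2 fold change -0.20, 95% confidence interval -0.75 to 0.35). Its groups overlapped. Cdc25b, a phosphatase that activates CDK1 (chromosome 2, 131012685 to 131024233), was at 14.7, 13.1 and 29.3 RPKM in normal and 6.7 and 4.9 RPKM in AML libraries. It was 3.28-fold lower in mean RPKM (log2 fold change -1.48, SE 0.37, limma, Benjamini-Hochberg adjusted p = 0.0237). Normal library 3 was its highest, and without that library the log2 fold change was -1.14.

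Ccnf, Cdc25c and Foxm1, the transcription factor of many G2 genes, were within 0.11 of 0 on the log2 scale. Foxm1 was at 23.2, 20 and 27.8 RPKM in normal and 24.1 and 24.3 RPKM in AML libraries (95% confidence interval of the log2 fold change -0.51 to 0.59). Its AML values lay inside the normal range. The call of Cdk1 was lost without any one of normal libraries 1 and 2 and AML libraries 1 and 2 (limma, Benjamini-Hochberg adjusted p = 0.083, 0.0847, 0.0866 and 0.111), and that of Ccnb1 without the same libraries (0.108, 0.142, 0.0645 and 0.235). Ccna2 lost its call when normal library 1 (0.113), library 2 of the same group (0.145) or AML library 2 (0.306) was left out, with a log2 fold change of -0.75 in the last case, and Cdc25b without AML library 1 (0.0757) or AML library 2 (0.171).

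**Figure D2:**
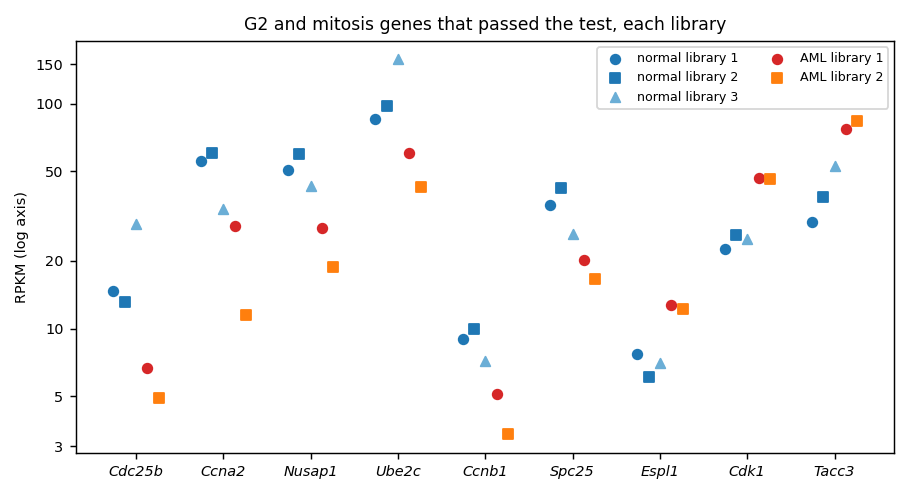
RPKM in each library (log axis) of the 9 genes that passed the test, ordered by fold change, with normal libraries in blue and AML libraries in red and orange. For Cdk1, Espl1 and Tacc3 both AML points lie above all normal points, and for the other 6 genes both lie below.

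The ratio of Cdk1 to its cyclins within a library does not depend on the scaling between libraries. These pairs were chosen after their values were seen and are given with no test. Cdk1 over Ccna2 was 0.409, 0.429 and 0.74 in the normal libraries against 1.64 and 4.0 in the AML libraries. Cdk1 over Ccnb1 was 2.52, 2.59 and 3.48 against 9.14 and 13.5. Cdk1 over Ccnb2 was 0.466, 0.474 and 0.417 against 0.898 and 1.08. In each pair both AML ratios lay above all normal ratios. Cdk1 rose and none of these cyclins did, so the ratios restate those values, also for Ccnb2, which did not pass the test.

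The mitotic kinases and the chromosomal passenger complex gave no call among 7 genes (31.0% of all tested genes were called). Within that complex, in which INCENP holds Aurora B, survivin and borealin together at centromeres, the 4 genes differed in sign. Incenp had the highest normal mean of the group and very even normal values of 52, 51.08 and 51.28 RPKM, against 75.28 and 87.96 RPKM in AML libraries. Both AML values lay above the normal ones, but the log2 fold change of 0.65 (SE 0.22) missed the threshold (limma, Benjamini-Hochberg adjusted p = 0.0621). Incenp passed with length and GC trends removed (limma, Benjamini-Hochberg adjusted p = 0.0479), without the variance trend (0.0494) and without normal library 3 (0.0476). Birc5 (survivin) was at 24.8, 34.4 and 31.9 RPKM in normal and 21.8 and 19.6 RPKM in AML libraries, with both AML values below the normal ones (log2 fold change -0.52, SE 0.24, limma, Benjamini-Hochberg adjusted p = 0.139). Aurkb was 31.9 and 32.3 RPKM in AML libraries, above normal values of 23.3, 23.3 and 31.0 RPKM by little (log2 fold change 0.31, 95% confidence interval -0.24 to 0.87). Cdca8 (borealin) overlapped between the groups. Incenp over Birc5 was 2.1, 1.48 and 1.61 in normal and 3.45 and 4.49 in AML libraries. Incenp over Cdca8 was 1.17, 1.06 and 1.04 against 1.67 and 2.79. Incenp over Aurkb was 2.23, 2.19 and 1.65 against 2.36 and 2.72, close to the normal range. These pairs too were chosen after their values were seen.

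Among the other kinases Aurka, which builds spindle poles, was at 28.9, 29.9 and 25.9 RPKM in normal and 22.5 and 13.4 RPKM in AML libraries (log2 fold change -0.67, SE 0.27, limma, Benjamini-Hochberg adjusted p = 0.105). Plk1, which acts from mitotic entry to cytokinesis, was at 29.7, 23.3 and 25.5 against 25.1 and 13.1 RPKM. AML library 1 lay inside the normal range of Plk1 and AML library 2 well below it. The Plk1 transcript has 1 near copy elsewhere in the genome. Plk4, which licenses centriole duplication, overlapped (11.4 ± 4.2 and 11.9 ± 3.89 RPKM, SD, n = 3 and 2).

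The spindle checkpoint genes, which delay anaphase until every chromosome is attached, overlapped between the groups in all 5 cases, and none passed. Of all 10166 tested genes 4374 overlapped and 7011 did not pass. Bub3, the most abundant, was at 45.5, 50.4 and 45.3 RPKM in normal and 47.3 and 27.3 RPKM in AML libraries. Its AML library 1 value lay inside the normal range and its AML library 2 value below it. Mad2l1 averaged 36.8 ± 5.17 and 36.6 ± 6.72 RPKM (SD, n = 3 and 2), with a 95% confidence interval of the log2 fold change from -0.59 to 0.58. Bub1 averaged 13.0 ± 1.75 and 12.3 ± 1.91 RPKM and Bub1b 21.8 ± 6.56 and 23.7 ± 7.21 RPKM (SD). Ttk, the kinase MPS1, was at 13.08, 16.47 and 10.72 in normal and 15.78 and 27.63 RPKM in AML libraries (log2 fold change 0.62, SE 0.31), with AML library 1 inside the normal range and AML library 2 above it.

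Of 5 genes around the anaphase-promoting complex Ube2c fell and Espl1 rose, or 40.0% called (31.0% of all tested genes). Ube2c, the ubiquitin-conjugating enzyme that starts chains for this complex (chromosome 2, 164595398 to 164604322), was at 85.8, 97.4 and 157.2 RPKM in normal and 60.6 and 42.8 RPKM in AML libraries. It was the second most abundant of the 52 genes in normal cells, and both AML values lay below all normal values. Ube2c was 2.19-fold lower (log2 fold change -1.09, SE 0.33, limma, Benjamini-Hochberg adjusted p = 0.0463). Of its 2600 exon bases 592 overlap Tnnc2 on the opposite strand, which did not exceed 1.05 RPKM. Espl1, separase, the protease that cuts cohesin (chromosome 15, 102126724 to 102154787), was at 7.71, 6.1 and 7.07 RPKM in normal and 12.72 and 12.22 RPKM in AML libraries. It rose 1.79-fold (log2 fold change 0.76, SE 0.22, limma, Benjamini-Hochberg adjusted p = 0.0365), with both AML values above the normal range.

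Pttg1, securin, the inhibitor of separase, varied from 16.1 to 32.7 RPKM among normal libraries and was at 17.0 and 20.5 RPKM in AML libraries, inside that range. The activators Cdc20 and Fzr1 (CDH1) averaged 33.9 ± 3.34 and 23.2 ± 1.53 RPKM in normal and 29.4 ± 2.9 and 22.1 ± 0.424 RPKM in AML libraries (SD). The 95% confidence intervals of their log2 fold changes ran from -0.72 to 0.33 and from -0.56 to 0.43. The Cdc20 transcript has 1 near copy elsewhere in the genome. The calls of Ube2c and Espl1 were each lost without normal library 1 (limma, Benjamini-Hochberg adjusted p = 0.0522 and 0.0827), normal library 2 (0.108 and 0.155), AML library 1 (0.0888 and 0.129) or AML library 2 (0.267 and 0.155). Espl1 also lost it under upper quartile scaling (0.055) and quantile normalization (0.0577).

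Of 7 centromere and kinetochore genes Spc25 fell, or 14.3% called (31.0% of all tested genes). The NDC80 complex, which binds microtubules, has the subunits NDC80, NUF2, SPC24 and SPC25. Spc25 (chromosome 2, 69031952 to 69044251) was at 35.6, 42.3 and 26.3 RPKM in normal and 20.1 and 16.6 RPKM in AML libraries (log2 fold change -0.87, SE 0.27, limma, Benjamini-Hochberg adjusted p = 0.0495). Both AML values lay below the normal range. The other subunits overlapped between the groups: Nuf2, the most abundant, at 35.1, 41.3 and 37.5 RPKM in normal and 38.4 and 49.2 RPKM in AML libraries, Ndc80 at 21.9 ± 3.23 and 25.9 ± 8.06 RPKM and Spc24 at 17.1 ± 2.85 and 15.8 ± 1.48 RPKM (SD, n = 3 and 2). Ndc80 over Spc25 was 0.52, 0.53 and 0.947 in normal and 1.0 and 1.9 in AML libraries, a pair chosen after its values were seen.

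Cenpf, a large protein of the outer kinetochore, was at 13.1, 12.3 and 7.7 RPKM in normal and 6.7 and 4.5 RPKM in AML libraries. Its AML values lay below the normal ones (log2 fold change -0.86, SE 0.30, limma, Benjamini-Hochberg adjusted p = 0.0699). Cenpf passed under upper quartile scaling (0.043), quantile normalization (0.0327) and without normal library 3 (0.0104). Cenpe, the kinetochore kinesin, was at 15.9, 16.2 and 14.3 against 17.7 and 18.9 RPKM, above the normal range by little. Cenpa, the centromeric histone H3, overlapped, with normal values from 26.83 to 47.67 RPKM. Spc25 lost its call without normal library 1 (limma, Benjamini-Hochberg adjusted p = 0.129), normal library 2 (0.179), AML library 1 (0.111) or AML library 2 (0.255), and when values were rounded to 1 decimal (0.0507).

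Kinesins and spindle proteins held 9 negative fold changes among 10 genes, of which Nusap1 passed, and 1 rise, that of Tacc3. Of all 10166 tested genes 4480 had a negative fold change, and 31.0% were called. Nusap1, which bundles spindle microtubules near chromosomes (chromosome 2, 119444034 to 119476980), was at 50.8, 59.8 and 43.2 RPKM in normal and 27.9 and 18.8 RPKM in AML libraries. It fell 2.2-fold (log2 fold change -1.12, SE 0.27, limma, Benjamini-Hochberg adjusted p = 0.0223), with groups well apart. Tacc3, which stabilises spindle fibres with clathrin and is bound by Aurora A (chromosome 5, 34000777 to 34021644), was at 29.77, 38.39 and 53.09 RPKM in normal and 77.01 and 84.11 RPKM in AML libraries. It rose 1.99-fold (log2 fold change 1.01, SE 0.29, limma, Benjamini-Hochberg adjusted p = 0.0387), and normal library 3 was the closest to the AML values. Tacc3 over Aurka was 1.03, 1.28 and 2.05 in normal and 3.42 and 6.28 in AML libraries, also chosen after its values were seen.

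The motors and bundlers of the central spindle missed the threshold. Prc1, which bundles midzone microtubules, was at 47.8, 50.9 and 37.1 RPKM in normal and 31.6 and 24.9 RPKM in AML libraries (log2 fold change -0.66, SE 0.25, limma, Benjamini-Hochberg adjusted p = 0.0886). Kif23, a subunit of centralspindlin, was at 38.7, 41.2 and 34.0 against 28.1 and 27.2 RPKM. Both AML values of Prc1 and of Kif23 lay below the normal range, as did those of Hmmr. Kif11, the motor that separates spindle poles, was at 39.7, 43.5 and 20.2 RPKM in normal and 22.2 and 11.6 RPKM in AML libraries. Here normal library 3 lay between the AML values, and the log2 fold change was -0.98 with it and -1.32 without it. Without normal library 3, Kif11, Hmmr and Prc1 passed (limma, Benjamini-Hochberg adjusted p = 0.0102, 0.0172 and 0.0263), and Prc1 did so under upper quartile scaling (0.0478). Kif20a, Kif2c, Kif4 and Tpx2 overlapped. Nusap1 lost its call when normal library 1 (limma, Benjamini-Hochberg adjusted p = 0.0608) or 2 (0.0952) or AML library 2 (0.169) was left out. Tacc3 lost it without normal library 1 (0.113), normal library 2 (0.127), AML library 1 (0.117) or AML library 2 (0.197), and under upper quartile scaling (0.0638).

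The 3 cytokinesis genes overlapped between the groups, as did 4374 of all 10166 tested genes. Racgap1, the other subunit of centralspindlin, was at 47.7, 49.6 and 40.0 RPKM in normal and 53.4 and 40.1 RPKM in AML libraries, with a 95% confidence interval of the log2 fold change from -0.56 to 0.60. Anln, anillin, averaged 17.1 ± 4.85 and 21.8 ± 3.58 RPKM (SD, n = 3 and 2). Ect2, the exchange factor that activates RhoA at the cleavage furrow, was at 11.5, 12.3 and 4.8 RPKM in normal and 8.7 and 4.5 RPKM in AML libraries, with normal library 3 between the AML values.

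Of 7 genes of condensin and chromosome structure none passed (31.0% of all tested genes did). Condensin compacts chromosomes, and SMC2 and SMC4 form its core as a heterodimer. Smc4 was at 74.65, 94.22 and 62.08 RPKM in normal and 111.83 and 158.84 RPKM in AML libraries, with both AML values above the normal range (log2 fold change 0.80, SE 0.29, limma, Benjamini-Hochberg adjusted p = 0.0736). Smc2 was at 32.9, 37.7 and 12.6 RPKM in normal and 18.9 and 12.6 RPKM in AML libraries, so that normal library 3 equalled AML library 2. Without normal library 3 Smc2 passed (log2 fold change -1.14, limma, Benjamini-Hochberg adjusted p = 0.00921). Smc4 over Smc2 was 2.27, 2.5 and 4.93 in normal and 5.92 and 12.6 in AML libraries, a pair chosen after its values were seen. Ncapd2, a subunit of condensin I, was at 37.56, 33.37 and 27.69 against 47.28 and 54.88 RPKM (log2 fold change 0.63, SE 0.24, limma, Benjamini-Hochberg adjusted p = 0.0885). Ncaph and Ncapg of the same complex overlapped.

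**Figure D3:**
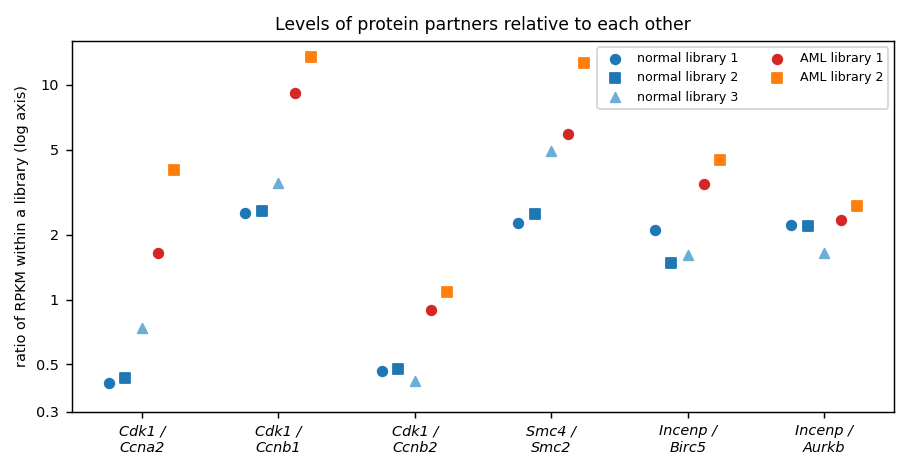
Ratio of RPKM of 6 pairs of genes with partner proteins within each library (log axis), normal libraries in blue and AML libraries in red and orange. Both AML points lie above all normal points in each pair. Of the normal libraries, library 3 lies nearest to the AML points for Smc4 over Smc2, Cdk1 over Ccna2 and Cdk1 over Ccnb1.

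The proliferation marker Mki67 and the topoisomerase Top2a were not called. Mki67, the most abundant of the 52 genes in normal cells, was at 157.4, 111.4 and 103.1 RPKM in normal and 129.9 and 90.6 RPKM in AML libraries. Its groups overlapped, and the 95% confidence interval of its fold change ran from 0.547 to 1.45. Top2a, which untangles sister chromatids, was at 110.8, 107.8 and 66.1 RPKM in normal and 73.0 and 57.6 RPKM in AML libraries (log2 fold change -0.51, SE 0.31, limma, Benjamini-Hochberg adjusted p = 0.244). Normal library 3 lay between the AML values of Top2a, and without it Top2a passed (log2 fold change -0.74, adjusted p = 0.0341).

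Differences within the groups were as large as many of those between them. Normal library 3 was below both other normal libraries for 30 of the 52 genes and for 4818 of all 10166 tested genes. The median log2 difference was -0.17 over the 52 genes (-0.06 over all tested genes). The largest were those of Smc2 (-1.41), Ect2 (-1.15), Kif11 (-1.01) and Plk4 (-0.94), while Cdc25b (1.03), Ube2c (0.78) and Pttg1 (0.74) were higher in that library. Over the 52 genes this difference followed transcript length (r = -0.51) and GC content (r = 0.58), as a description over genes that share these libraries. AML library 2 was below AML library 1 for 37 of the 52 genes and for 6029 of all 10166 tested genes. The median log2 difference was -0.30 over the 52 genes (-0.13 over all tested genes). Ccna2 (-1.24), Plk1 (-0.89) and Kif11 (-0.88) led, and Ttk (0.77) and Ndc80 (0.62) went the other way. The difference between the AML libraries had r = -0.11 with length over the 52 genes, and the fold change between the groups had r = 0.03. Over 9892 genes the difference between the groups had r = -0.25 with length and r = 0.21 with GC content. Erythroid and eosinophil markers, given above, moved with the difference of normal library 3.

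**Figure D4:**
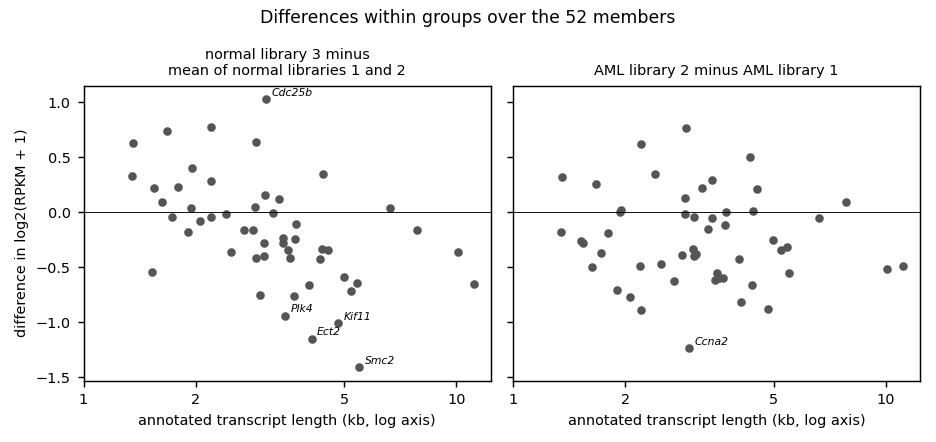
Difference in log2(RPKM + 1) within groups for the 52 genes against annotated transcript length (kb, log axis), normal library 3 minus the mean of normal libraries 1 and 2 on the left and AML library 2 minus AML library 1 on the right. Smc2, Ect2, Kif11 and Plk4 lie lowest on the left and Cdc25b highest, and Ccna2 lies lowest on the right.

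Other genes of the pathway, 113 in a list that does not hold the 52, gave 20 higher and 6 lower genes, or 17.7% and 5.31% (19.3% and 11.8% of all tested genes), with a median log2 fold change of 0.08. Among 31 further kinetochore and centromere genes 9 rose and none fell, with 12 at an unadjusted p under 0.05. Among 27 further spindle and cytokinesis genes none rose and 3 fell, with 9 at an unadjusted p under 0.05. Over all 10166 tested genes 4463 had an unadjusted p under 0.05. Of 17 further G2 regulators 5 rose and 2 fell, of 14 further subunits and inhibitors of the anaphase-promoting complex 3 rose and none fell, and of 24 condensin, cohesin and chromatin genes 3 rose and 1 fell. The largest rises were those of Pkmyt1 (log2 fold change 1.90, SE 0.34), which encodes MYT1, Cenpw (1.68, SE 0.29), a histone-fold protein of the inner kinetochore, Anapc5 (1.58, SE 0.22), a scaffold subunit, and Lmnb2 (1.41, SE 0.21), lamin B2. The largest falls were those of Fam64a (-3.07, SE 0.23), Lmnb1, lamin B1 (-1.38, SE 0.30), and the kinases Melk (-1.24, SE 0.28) and Nek2 (-1.13, SE 0.35).

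Among the regulators that set CDK1 activity, Pkmyt1 was at 9.31, 11.43 and 17.15 RPKM in normal and 37.59 and 62.68 RPKM in AML libraries (limma, Benjamini-Hochberg adjusted p = 0.0076). Wee1, named after its values were seen, was at 5.58, 4.78 and 2.79 against 10.75 and 10.3 RPKM (log2 fold change 1.14, limma, Benjamini-Hochberg adjusted p = 0.0257). Both AML values lay above the normal range for each of these kinases that inhibit CDK1. Of the CDC25 phosphatases, Cdc25a, also named after its values were seen, rose (19.53, 17.17 and 19.81 against 49.6 and 34.17 RPKM, limma, Benjamini-Hochberg adjusted p = 0.0171), Cdc25b fell and Cdc25c did not pass. Fam64a was at 12.8, 13.8 and 17.5 RPKM in normal and 0.8 and 0.9 RPKM in AML libraries. Both AML values lay under the filter of 1 RPKM, so Fam64a was tested only through the normal libraries, where it is high. Its log2 fold change ran from -3.16 to -2.95 with 1 library left out. The call of Pkmyt1 was lost without AML library 2 (0.0773), that of Cenpw without it (0.0514) and that of Lmnb2 without it (0.0507). Lmnb1 lost its call without normal library 2 (0.0666) or AML library 2 (0.111). Wee1 and Cdc25a lost theirs when normal library 2 was left out (0.0692 and 0.0812), or AML library 1 (0.108 and 0.0974) or AML library 2 (0.131 and 0.0514). Melk and Nek2 did so without normal library 1 (0.0513 and 0.127), normal library 2 (0.0704 and 0.149), AML library 1 (0.0502 and 0.052) or AML library 2 (0.14 and 0.308).

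Genes of DNA replication and S phase, the step before G2, are given beside the 52 genes as the nearest part of the cell cycle. Of 50 such genes 40 rose and none fell, or 80.0% higher, against 19.3% of all tested genes. At an unadjusted p under 0.05 there were 42, against 4463 of all 10166 tested genes. Their median log2 fold change was 1.35, beside -0.13 for the 52 genes. The median level of the replication genes was 11.1, 13.3 and 10.8 RPKM in normal and 34.8 and 37.1 RPKM in AML libraries. That of the G2 and mitosis genes was 26.2, 24.7 and 26.1 RPKM in normal and 24.2 and 19.8 RPKM in AML libraries. In normal libraries the mitotic genes thus had the higher median and in AML libraries the replication genes. The largest rises were those of Prim1, a primase subunit (2.55, SE 0.32), Cdt1, a licensing factor (2.31, SE 0.23), and Pold1, the catalytic subunit of DNA polymerase delta (2.17, SE 0.22), each called in every fit without one library. Without AML library 1 there were 24 rises among the replication genes and without AML library 2 there were 22. The difference between the lists itself was not tested.

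**Figure D5:**
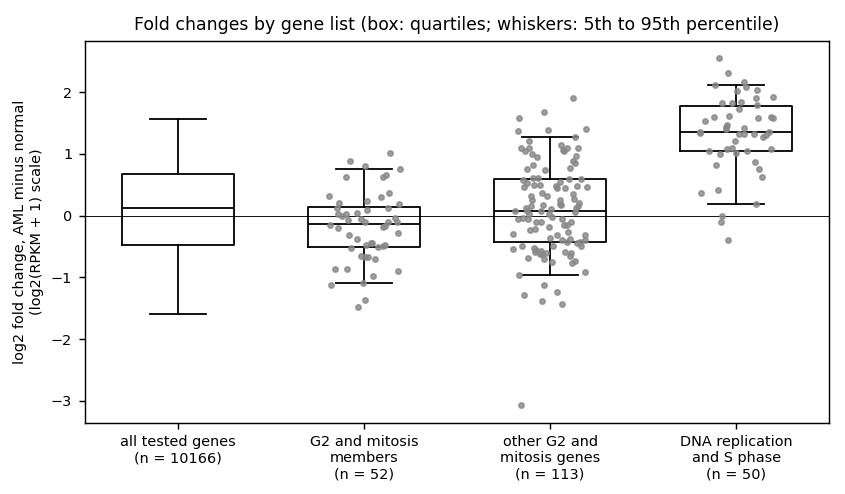
Log2 fold change (AML minus normal, log2(RPKM + 1) scale) for all tested genes, the 52 G2 and mitosis genes, 113 other genes of the pathway and 50 replication genes, with boxes at the quartiles, whiskers from the 5th to the 95th percentile and single genes as points except for all genes. The median is -0.13 for the 52 genes and 1.35 for the replication genes.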

How the data were processed

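RNA sequencing libraries of 3 normal and 2 AML samples were compared. The authors deposited 1 table of 34240 features with 1 value column per library, and its values were taken as RPKM because values multiplied by exon length sum to about the same total in each library. No label or header names the unit. The build is mm9 per the submitters' processing notes, and the aligner, counter, annotation and use of strand are not stated in any source at hand. Raw counts were not analysed here. Genes at 1 RPKM or more in at least 2 libraries (10166) were fitted on log2(RPKM + 1) in limma 3.58.1 (R 4.3.3) with a variance trend and robust estimation, and p-values were adjusted by Benjamini-Hochberg over all of them (threshold 0.05). The fit was tested on simulated data. The 52 genes and all gene lists were chosen with earlier results of these data known. The text names all 52 by role, with values per library for called genes and the most abundant of each role. Values per library are also given for some other genes that were not called, for which no rule was set beforehand. Of the other lists it names the genes with the largest called changes (4 rises and 4 falls, and 3 replication genes). Copies and overlaps of transcripts were sought in mm9. Promoter windows came from RefSeq (GRCm38.p6). Alternatives were another scaling, filter, pseudocount, variance model or rounding, removal of length and GC trends, and each library left out. Leaving out normal library 3 with AML library 2 was added after seeing the data.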

Additional observations from a re-analysis of the deposited data

How the results depend on the processing

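Library numbers refer to the order within each group, and without a library the arm left with 1 sample was assumed to vary like the other. No paired analysis was possible because the sample titles of the groups share fewer than 2 numbers. With one library left out, the counts of rises and falls ranged from 0 to 4 and from 0 to 12 for the 52 genes, from 326 to 2757 and from 348 to 2142 for all genes, and from 2 to 24 and from 1 to 17 for the other pathway genes. Replication genes ranged from 22 to 41 rises with 0 falls, and the median of the 52 genes from -0.26 to -0.05. Without normal libraries 1 and 2 there were 0 and 2 of the 52 genes, 864 and 471 of all genes and 8 and 1 of the other pathway genes. Without normal library 3 and AML library 2 there were 4 and 12 of the 52, 3059 and 2162 of all genes, 37 and 18 of the other pathway genes and 46 rises and 1 fall among replication genes. Upper quartile scaling gave 1 rise among the 52 genes. Testing 17466 genes, all not at 0 throughout, gave 1 rise and 1 fall among them (Cdk1 and Nusap1) and 3 falls among the other pathway genes. Removing length and GC trends gave 8 rises among the 52 and 11 falls among the other pathway genes. The cause was not tested. A filter at 5 RPKM and a pseudocount of 0.1 changed no sign or call of the 52 genes.

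Sign changes were limited to 18 genes that were not called. Under upper quartile scaling and quantile normalization the log2 fold changes were -0.05 and -0.05 for Foxm1, -0.0016 and -0.02 for Plk4, -0.08 and -0.10 for Racgap1 and -0.07 and -0.06 for Ncaph. With length and GC trends removed they were 0.22 for Bub1, 0.07 for Mad2l1, 0.14 for Kif4 and 0.30 for Mki67. Without normal libraries 1 and 2 they were -0.19 for Foxm1, 0.12 for Bub1, 0.02 for Mad2l1, -0.12 for Cenpa, 0.06 for Kif2c, 0.24 for Kif4, 0.33 for Ect2, 0.27 for Smc2 and 0.07 for Mki67. Without normal library 3 and AML library 2 they were 0.0093 for Ccnb2, -0.31 (the same sign) for Bub1, 0.16 for Mad2l1, 0.0031 for Fzr1, -0.01 for Ndc80, 0.10 for Spc24 and 0.10 for Kif2c. With one library left out they ranged from -0.07 to 0.16 for Foxm1, -0.22 to 0.40 for Plk4, -0.21 to 0.08 for Bub1, -0.18 to 0.43 for Bub1b, -0.76 to 0.0087 for Bub3, -0.19 to 0.17 for Mad2l1, -0.10 to 0.52 for Ndc80, -0.22 to 0.01 for Spc24, -0.24 to 0.15 for Kif2c, -0.18 to 0.22 for Racgap1, -0.29 to 0.34 for Ncaph and -0.42 to 0.09 for Mki67, and within one sign from -0.34 to -0.06 for Ccnb2 and -0.09 to -0.02 for Fzr1.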
